A study of Mus musculus with 12 samples.

Results

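NMDA receptor (NMDAR) subunit transcripts were examined by RNA-seq in whole brains of Slc6a20a-mutant mice. The genes were taken by symbol, after the Ensembl identifiers of the normalized count table had been matched to mouse symbols. They were Grin1, Grin2a, Grin2b, Grin2c, Grin2d and Grin3a, 6 of the 19775 genes in the table, and all 6 had the mean of at least 10 normalized counts that the test required. Slc6a20a encodes a transporter of proline and glycine, and the mutant allele lacks exon 3. Brains came from 12 male mice of the C57BL/6N strain at about postnatal day 120, born to heterozygous parents. There were 4 wild-type mice (WT), 4 heterozygous mice carrying 1 mutant allele (HT, Slc6a20a+/-) and 4 homozygous mutant mice (HM, Slc6a20a-/-). Each library is labelled as the brain of a separate mouse, and no treatment is named. The comparison addresses whether loss of a glycine transporter is accompanied by different levels of the transcripts for receptors that use glycine as a co-agonist.

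NMDARs are glutamate-gated cation channels in which obligatory GluN1 subunits, encoded by Grin1, assemble with GluN2 subunits or GluN3 subunits. GluN1 and GluN3 bind glycine or D-serine, whereas GluN2A to GluN2D (Grin2a to Grin2d) bind glutamate and set the conductance, magnesium block and kinetics of the channel. In the forebrain GluN2B dominates early in life and GluN2A joins it after birth, while GluN2C is known for cerebellar granule cells and GluN2D for interneurons, diencephalon and brainstem.

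The 6 genes are related in sequence, which matters for how reads are divided between them. Over whole coding sequences (GENCODE M21, GRCm38), the closest pair was Grin2a and Grin2b with 62.2% identical aligned bases, followed by Grin2c and Grin2d with 61.6%, and the most distant was Grin1 and Grin3a with 40.6%. Few 31-base words of a subunit transcript occurred in another subunit. Grin2c shared 6 such words with other subunits, Grin2b shared 4, Grin2d shared 2, and Grin1, Grin2a and Grin3a shared 0. Overlap with genes outside the family was larger for 3 members. Of the words of Grin2a, 12.1% also occurred elsewhere, 2133 of them in the processed pseudogene Gm7328, which matches the later part of the Grin2a coding sequence and was not analysed here. Of the words of Grin1, 10.7% occurred elsewhere, mostly in the antisense gene Grin1os, listed at 404 to 576 normalized counts. Of the words of Grin2d, 8.65% occurred elsewhere, mostly in the antisense gene Gm45441, listed at 141 to 176. The sources used here do not say whether strand was used in counting, so that reads of Grin1 and Grin1os, or of Grin2d and Gm45441, cannot be told apart where they overlap.

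The deleted gene followed the genotype labels. Slc6a20a, without overlap between the 3 genotypes, had 679 ± 70.1 normalized counts in WT mice (mean ± SD, n = 4), 345 ± 29.1 in HT mice and 64.5 ± 9.95 in HM mice. The log2 fold change of Slc6a20a was -0.97 in HT/WT (adjusted p = 0.000938) and -3.38 in HM/WT (adjusted p = 1.75e-08) by limma with the Benjamini-Hochberg (BH) method. Normalized counts summed to between 33284951 and 33748623 per mouse. They had been scaled to a common depth by the authors. From the spacing of the lowest values, a read was worth an estimated 0.923 to 1.11 normalized counts. That puts the reads on genes at about 30300000 to 36100000 per mouse. The spacing was only partly regular, because values were not whole multiples of a read, so these depths are rough. Neuronal markers were high in all 12 mice, with Snap25 between 79380 and 87847. The 9 cerebellar markers summed to 1418 to 1654 per mouse, against 15903 to 16709 for 8 markers of the telencephalon. Most of that sum came from Cbln1 (552 to 696), Car8 (235 to 311), Slc1a6 (265 to 314) and Gdf10 (208 to 292). The other 5 were low, with Pcp2 at 5.54 to 26.4, Cbln3 at 12.1 to 24.5, Fat2 at 3.28 to 28.7, En2 at 19.0 to 49.8 and Ppp1r17 at 14.8 to 28.3. Gabra6 was also on the cerebellar list but was not among the genes of the count table. The authors describe the samples as whole brain, and how much cerebellum they held was not tested. The 6 olfactory bulb markers summed to 794 to 1429 in HM mice, 542 to 856 in WT mice and 494 to 642 in HT mice. WT replicate 1 stood apart by transcript length. Its 400 transcripts of at least 10 kb had a median deviation of -0.19 on the log2 scale from the average of all mice, against -0.04 to 0.05 in the other 11 mice, and its 1227 transcripts under 1 kb had one of 0.14. Results that rest on WT replicate 1 are given with and without it.

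Per kilobase of the longest protein-coding transcript, Grin1 had the highest level of the family, at 4597 ± 200 normalized counts (SD over 12 mice). Grin2b followed at 816 ± 105, Grin2a at 586 ± 40.2 and Grin2c at 423 ± 20.8. Grin3a, at 219 ± 8.04, and Grin2d, at 181 ± 12.9, were lowest. The ranges over mice of neighbours in this order did not overlap, with the exception of Grin2b, from 561 to 929, and Grin2a, from 489 to 620. The lowest Grin2b value was that of WT replicate 1. The order of the lowest pair depended on the length used, since Grin2d lay above Grin3a per kilobase of all exons together (148 against 134). Grin3b, the remaining gene of the family, had 10.2 to 32.6 normalized counts in the 12 mice and is not considered further.

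**Figure D1:**
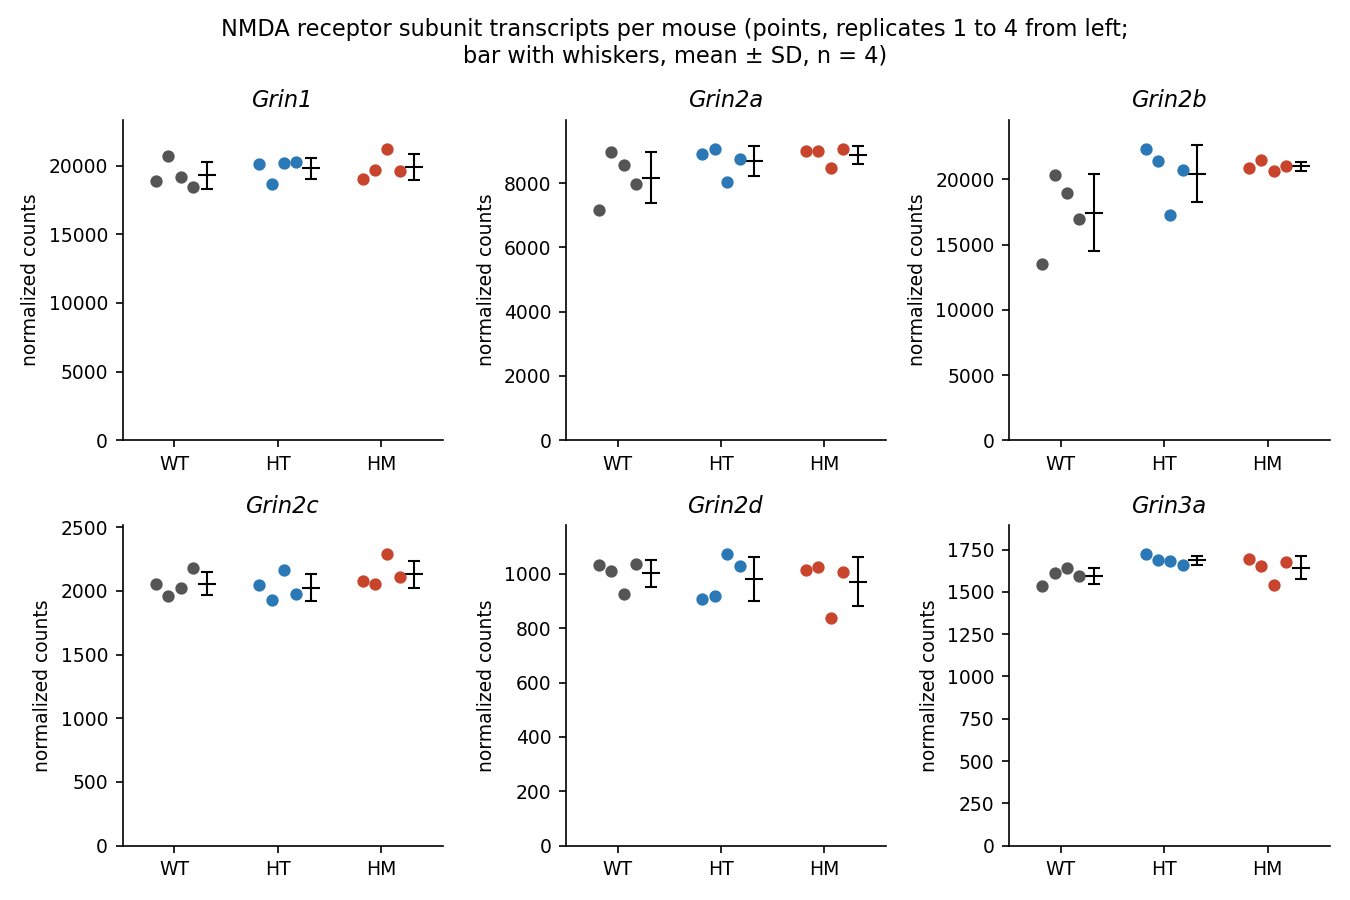
Normalized counts of the 6 subunit transcripts in each WT, HT and HM mouse (points, replicates 1 to 4 from left to right) with mean ± SD of 4 mice per genotype (bar with whiskers). Each vertical axis starts at 0. In the Grin2b panel all 4 HM mice lie above all 4 WT mice and WT replicate 1 is the lowest mouse, whereas the genotypes overlap in the Grin1, Grin2c and Grin2d panels.

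Across the family, no subunit transcript passed the adjusted threshold in any comparison, and Grin2b showed the largest differences from WT. By limma with BH adjustment over all genes tested, 0 of the 6 subunits had an adjusted p under 0.05 in HT/WT, HM/WT or HM/HT. The share of all genes called was 0.00555% in HT/WT, 0.0111% in HM/WT and 0.00556% in HM/HT. At an unadjusted p under 0.05, 1 of 6 subunits was past the threshold in HT/WT, against 6.42% of all 18004 genes, and 1 of 6 in HM/WT, against 6.99%. Both were Grin2b. In HM/HT it was 0 of 6, against 3.74% of 17986 genes. The mice of the compared genotypes did not overlap for 1 subunit in HT/WT (Grin3a), against 3.73% of all genes, for 1 in HM/WT (Grin2b), against 4.22%, and for 0 in HM/HT, against 2.38%. The fold change was above 0 for 4 of 6 subunits in HT/WT, 5 of 6 in HM/WT and 4 of 6 in HM/HT, with medians of 0.06, 0.05 and 0.02. Over all genes, 50.0%, 49.8% and 49.5% were above 0. Both comparisons against WT use the same 4 WT mice, so their values are not independent. In these bulk samples, fewer cells of a type and less RNA per cell cannot be told apart.

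Grin1, which encodes the subunit that every NMDAR requires, had 18843, 20708, 19159 and 18438 normalized counts in the 4 WT mice. The HT mice had 20084, 18682, 20202 and 20225, and the HM mice had 19050, 19678, 21222 and 19589. The 3 genotypes overlapped throughout, and the mouse with the most Grin1 was HM replicate 3. The log2 fold change was 0.04 ± 0.04 (SE) in HT/WT and 0.04 ± 0.04 in HM/WT, neither past the threshold (limma, BH adjusted p = 0.908 and 0.865). The 95% confidence intervals ran from -0.06 to 0.13 and from -0.05 to 0.14, so that a change of Grin1 beyond these limits was not seen in either genotype. In HM/HT the log2 fold change was 0.0059, with an interval from -0.08 to 0.09.

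Grin2b, which encodes the GluN2B subunit, varied most of all subunits among WT mice. The WT mice had 13507, 20338, 18978 and 16988 normalized counts, a spread of 17.0% of the mean. The HT mice had 22347, 21427, 17281 and 20712, and the HM mice had 20877, 21470, 20648 and 21016, a spread of 1.65%. All 4 HM mice were above all 4 WT mice, although the lowest HM mouse exceeded WT replicate 2 by little. HT replicate 3 lay within the WT range.

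The HM mean of Grin2b was 120.3% of the WT mean, and the log2 fold change in HM/WT was 0.28 ± 0.09 (limma, BH adjusted p = 0.655, 95% interval from 0.08 to 0.49). By unadjusted p it ranked 262 among 18004 genes. A two-sided exact permutation test over the 8 mice gave p = 0.0286, the smallest that 4 mice against 4 allow. In HT/WT the mean was 117.1% of WT and the log2 fold change was 0.24 ± 0.11 (limma, BH adjusted p = 0.770, 95% interval from 0.0057 to 0.47, exact permutation p = 0.143). HM and HT mice differed by 0.05, with a 95% interval from -0.09 to 0.18.

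The Grin2b difference depended on WT replicate 1 in size. Without that mouse the log2 fold change was 0.17 ± 0.05 in HM/WT, with an interval from 0.06 to 0.28 (limma, BH adjusted p = 0.637). In HT/WT it was 0.12 ± 0.08, with an interval from -0.05 to 0.30 that included 0 (limma, BH adjusted p = 0.848). After each library had been corrected for the length and GC content of transcripts, it was 0.20 ± 0.05 in HM/WT, with an interval from 0.08 to 0.31 (limma, BH adjusted p = 0.578). In HT/WT it was then 0.16 ± 0.07, with an interval from 0.01 to 0.31 (limma, BH adjusted p = 0.783). Its longest transcript, of 24060 bases, is the longest of the family. The 398 to 399 genes with transcripts of at least 10 kb had a median log2 fold change of 0.06 in HT/WT and 0.07 in HM/WT, which became 0.02 and 0.03 without WT replicate 1. Animal numbers in the column names gave a further split, whose meaning the sources do not state. With a block for mice whose numbers start alike, the Grin2b value was 0.09 in HT/WT (limma, BH adjusted p = 0.826) and 0.33 in HM/WT (limma, BH adjusted p = 0.579). That HM/WT value is the mean of only 2 pairs of mice, 0.61 for HM replicate 3 against WT replicate 1 and 0.05 for HM replicate 4 against WT replicate 2. In HT/WT it rests on 2 HT mice against WT replicate 2 (0.11) and on 2 HT against 2 WT mice (0.08), without WT replicate 1. The olfactory bulb markers given above were also higher in HM mice, with 5 of 6 at an unadjusted p under 0.05 in HM/WT, and their part in the result was not tested.

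Grin2a, which encodes the GluN2A subunit of mature forebrain synapses, had 7163, 8981, 8571 and 7979 normalized counts in WT mice. The HT mice had 8913, 9065, 8022 and 8746, and the HM mice had 8989, 8992, 8458 and 9068. WT replicate 1 was again the lowest mouse, and the genotypes overlapped. The log2 fold change was 0.09 ± 0.06 in HT/WT (limma, BH adjusted p = 0.857) and 0.12 ± 0.06 in HM/WT (limma, BH adjusted p = 0.724). Without WT replicate 1 these values were 0.03 and 0.06, and after the correction for length and GC content they were 0.03 and 0.05. In HM/HT the value was 0.03, with an interval from -0.06 to 0.12. The sequence shared with Gm7328 applies to all of these Grin2a values.

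Grin2c and Grin2d encode the GluN2 subunits that are less common in the forebrain. Grin2c had 2057, 1960, 2024 and 2178 normalized counts in WT mice, 2042, 1924, 2162 and 1974 in HT mice, and 2074, 2057, 2288 and 2107 in HM mice. The groups overlapped, with log2 fold changes of -0.02 ± 0.05 in HT/WT, 0.05 ± 0.05 in HM/WT and 0.07 ± 0.05 in HM/HT (limma, BH adjusted p of at least 0.856).

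Grin2d had 1032, 1012, 927 and 1035 normalized counts in WT mice, 907, 920, 1072 and 1029 in HT mice, and 1014, 1025, 836 and 1008 in HM mice. It was the only subunit below WT on average in both mutant genotypes. Its log2 fold changes were -0.03 ± 0.07 in HT/WT and -0.05 ± 0.07 in HM/WT, neither larger than the spread between mice (limma, BH adjusted p = 0.962 and 0.921). HM replicate 3 had the lowest value of all 12 mice, and without it the HM/WT value was 0.02. The reads that Grin2d may share with Gm45441 could not be separated.

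Grin3a, which encodes a glycine-binding subunit that lowers calcium permeability, had 1531, 1612, 1638 and 1595 normalized counts in WT mice. All 4 HT mice were above all 4 WT mice, at 1722, 1689, 1682 and 1657. The HM mice, at 1697, 1650, 1543 and 1677, overlapped both groups. The log2 fold change in HT/WT was 0.08 ± 0.04 (limma, BH adjusted p = 0.795), with an exact permutation p of 0.0286. In HM/WT it was 0.04 ± 0.05 (limma, BH adjusted p = 0.883). In HM/HT it was -0.04, with an interval from -0.13 to 0.05. The HT mean was 105.9% of WT. Without WT replicate 1, the lowest WT mouse, the HT/WT value was 0.06, and after the correction for length and GC content it was 0.04. Erythrocyte markers, summed over 5 genes, were 6495 to 8717 in HT mice and 7780 to 21984 in WT mice, with 5 of 5 lower at an unadjusted p under 0.05 in HT/WT, and their part in the Grin3a result was not tested.

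**Figure D2:**
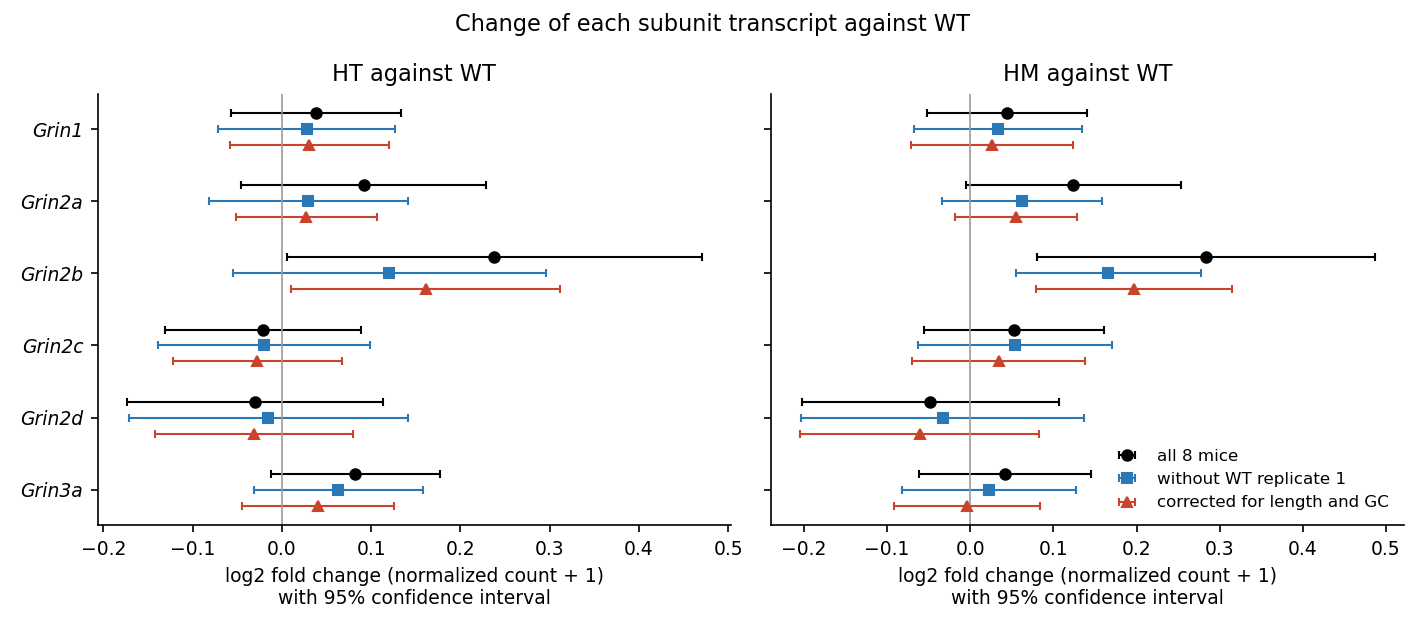
Log2 fold change of each subunit transcript in HT/WT (left) and HM/WT (right), with 95% confidence intervals, for all 8 mice (black circles), without WT replicate 1 (blue squares) and after correction for length and GC content (red triangles). Only Grin2b has intervals that leave out 0 in HM/WT in each of the 3 versions, at 0.28, 0.17 and 0.20.

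Subunit ratios were computed within each mouse, which removes the scaling between libraries. The ratio of Grin2a to Grin2b was 0.530, 0.442, 0.452 and 0.470 in the WT mice. It was 0.399, 0.423, 0.464 and 0.422 in the HT mice and 0.431, 0.419, 0.410 and 0.432 in the HM mice. All 4 HM mice were below all 4 WT mice, while HT replicate 3 lay within the WT range. The mean ratio was 0.473 ± 0.0398 for WT, 0.427 ± 0.0272 for HT and 0.423 ± 0.0104 for HM (SD, n = 4). The log2 ratio differed by -0.16 ± 0.06 in HM/WT (exact permutation p = 0.0286, BH adjusted p = 0.214 over 15 ratio tests) and by -0.15 ± 0.07 in HT/WT (exact permutation p = 0.0857, BH adjusted p = 0.427). HM and HT mice differed by -0.01 ± 0.05 with overlapping groups.

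The lower ratio of Grin2a to Grin2b was also seen under other settings. After the correction for length and GC content it differed by -0.14 in HM/WT (exact permutation p = 0.0286) and by -0.13 in HT/WT (exact permutation p = 0.0857). Without WT replicate 1, the WT mean was 0.454 ± 0.0142 (SD, n = 3) and the difference was -0.10 ± 0.03 in HM/WT, with all 4 HM mice still below. The exact permutation p was then 0.0571, the smallest that 3 mice against 4 allow, and the HT/WT difference was -0.09 with an exact permutation p of 0.171.

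The ratio of Grin2d to Grin2b was 0.0764, 0.0497, 0.0488 and 0.0610 in WT mice, and 0.0406, 0.0429, 0.0620 and 0.0497 in HT mice. In HM mice it was 0.0486, 0.0478, 0.0405 and 0.0479, below every WT mouse but with the highest HM and lowest WT values nearly equal. Its log2 difference in HM/WT was -0.33 ± 0.16 (exact permutation p = 0.0286, BH adjusted p = 0.214), and -0.20 without WT replicate 1 (exact permutation p = 0.0571). The ratio of Grin2c to Grin2b averaged 0.121 ± 0.0248 in WT mice, 0.1004 ± 0.0166 in HT mice and 0.1015 ± 0.00645 in HM mice, with overlapping groups (exact permutation p = 0.171 in HT/WT and 0.229 in HM/WT). On the log2 scale the difference was -0.26 in HT/WT and -0.23 in HM/WT, but -0.14 and -0.11 without WT replicate 1.

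The remaining ratios relate the accessory subunits to the obligatory one. The ratio of Grin3a to Grin1 averaged 0.0828 ± 0.00400 for WT, 0.0853 ± 0.00373 for HT and 0.0828 ± 0.00708 for HM (exact permutation p = 0.371 in HT/WT and 1.0 in HM/WT). The ratio of the 4 summed Grin2 transcripts to Grin1 averaged 1.49 ± 0.152 in WT mice, 1.63 ± 0.160 in HT mice and 1.66 ± 0.0966 in HM mice. On the log2 scale it differed by 0.13 ± 0.11 in HT/WT and by 0.17 ± 0.09 in HM/WT, and the groups overlapped (exact permutation p = 0.257 and 0.114). Without WT replicate 1 the differences were 0.05 and 0.09 (exact permutation p = 0.514 and 0.229). These values are not per unit length and so do not give subunit proportions.

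**Figure D3:**
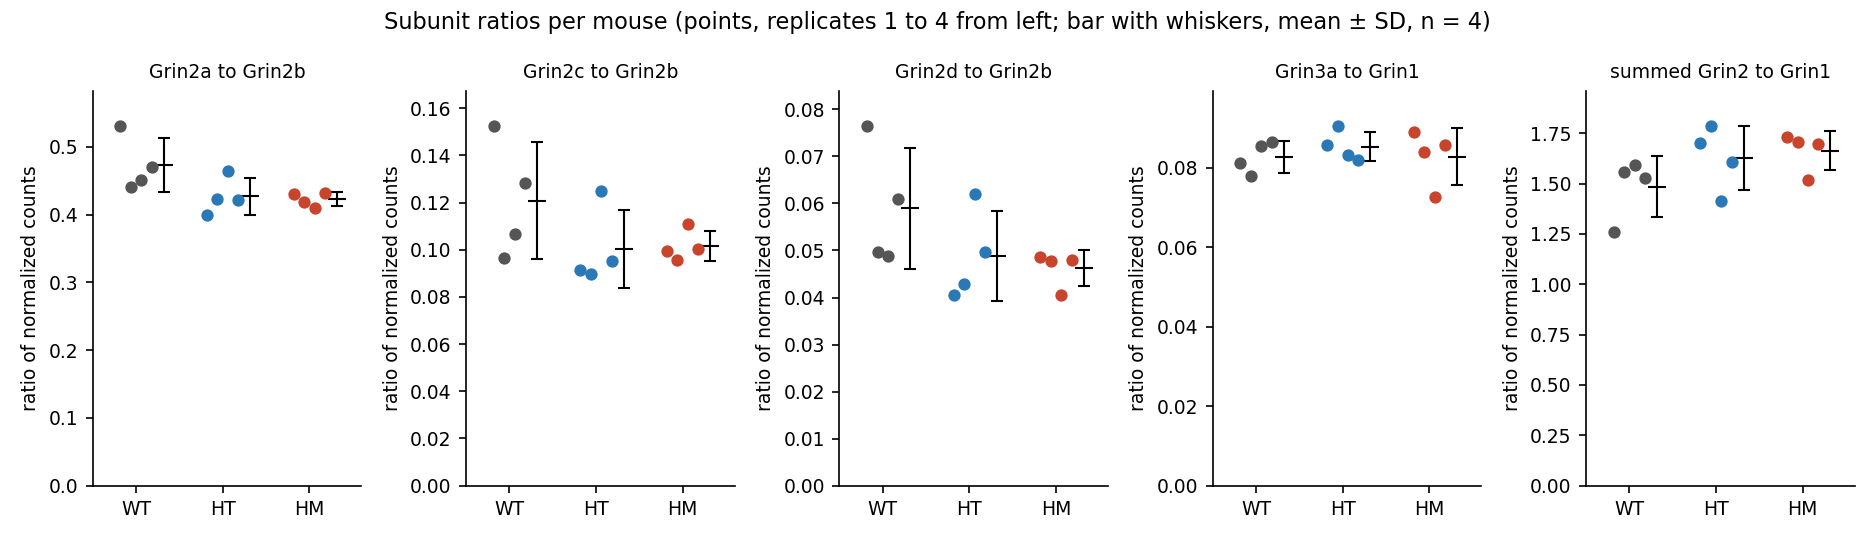
Ratios of normalized counts in each WT, HT and HM mouse (points, replicates 1 to 4 from left to right) with mean ± SD of 4 mice (bar with whiskers), on axes that start at 0. WT replicate 1 has the highest value in the 3 ratios to Grin2b, at 0.530 for Grin2a, 0.152 for Grin2c and 0.0764 for Grin2d, and HM mice lie close together in the ratio of Grin2a to Grin2b.

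Among mice, Grin2a and Grin2b varied together. After each genotype had been centred on its mean, their Pearson r over the 12 mice was 0.958 (permutation p = 0.00152, BH adjusted p = 0.041 over 27 relations), and Spearman's rho was 0.958 (permutation p = 0.001, BH adjusted p = 0.027). Without HT replicate 3 and WT replicate 1, the mice farthest from the median of Grin2a, r was 0.879, and without WT replicate 1 alone it was 0.924. No other relation was past the adjusted threshold. Grin2a and Grin3a had r = 0.651 (permutation p = 0.0144, BH adjusted p = 0.194) and rho = 0.699 (permutation p = 0.012, BH adjusted p = 0.162), with r = 0.609 without the same pair of mice. Grin2a and Grin2c had r = -0.638 (permutation p = 0.0314, BH adjusted p = 0.269) and rho = -0.657 (permutation p = 0.0297, BH adjusted p = 0.211), with r = -0.785 without those mice. Grin1 had low correlations with Grin2a (r = 0.102, rho = 0.0629) and with Grin2b (r = 0.236, rho = 0.203), with permutation p-values from 0.523 to 0.872. No subunit was related to the mean of the cerebellar markers or of the telencephalic markers past the adjusted threshold. Grin2c, whose subunit is known for cerebellar granule cells, had r = 0.350 with the cerebellar markers (permutation p = 0.293, BH adjusted p = 0.621, rho = 0.322). These means could show little of regional content. Most of the cerebellar markers had low counts, and the telencephalic mean varied only from -0.03 to 0.05 on the log2 scale. No conclusion is drawn from the lack of a relation.

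Grin2a and Grin2b also moved with the level of long transcripts as a whole, a relation examined after the data had been seen. Against the median deviation of transcripts of at least 10 kb in the same mouse, r was 0.930 for Grin2a (permutation p = 0.00188, BH adjusted p = 0.0113 over 6 relations) and 0.911 for Grin2b (permutation p = 0.013, BH adjusted p = 0.039). Spearman's rho was 0.783 for both (permutation p = 0.0186 and 0.0146, BH adjusted p = 0.0558 for both). Both genes have transcripts of over 10 kb and are themselves among the 400 whose median was taken. Without WT replicates 1 and 2, r was 0.836 for Grin2a and 0.741 for Grin2b. For Grin1, with a transcript of 4276 bases, r was 0.145 (permutation p = 0.722) and rho was 0.105.

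**Figure D4:**
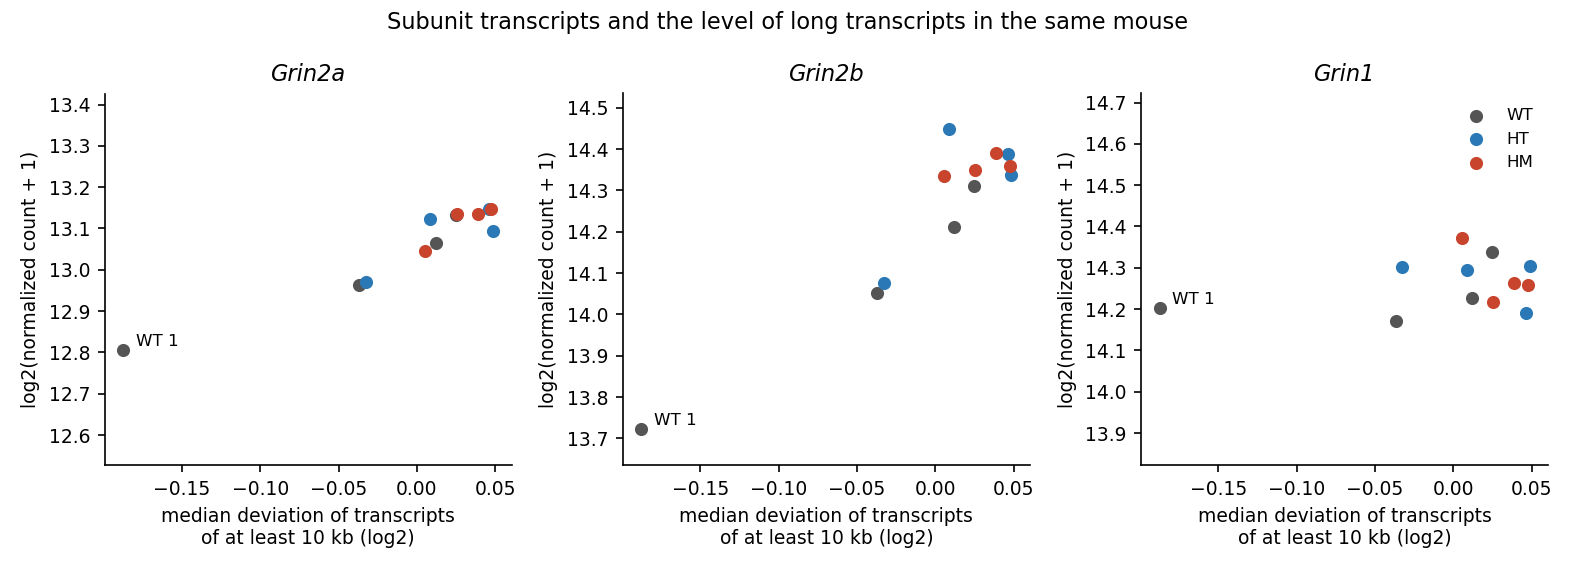
Log2(normalized count + 1) of Grin2a, Grin2b and Grin1 in each mouse against the median log2 deviation of 400 transcripts of at least 10 kb in the same mouse, coloured by genotype. All vertical axes span the same range. WT replicate 1, at -0.19, is at the lower left for Grin2a and Grin2b, whereas its Grin1 value lies among those of the other mice.

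The genes whose levels over the 12 mice were most like those of each subunit are given as a description, from 17764 genes compared after centring on genotype. For Grin2a these were Fzd3 (r = 0.973), Arfgef3 (0.971) and Kcnj6 (0.969), and for Grin2b they were Sestd1 (0.963), Kcnma1 (0.962) and Grin2a (0.958). The longest transcripts of Fzd3, Arfgef3 and Kcnma1 have 12734, 14579 and 12094 bases and belong, like those of Grin2a and Grin2b, to the class of at least 10 kb in which WT replicate 1 was low. Those of Sestd1 and Kcnj6, at 8990 and 3627 bases, do not. For Grin1 they were Trappc12 (r = 0.934), Amph (0.915) and Eif2ak1 (0.913), with transcripts of 3367 to 4325 bases. For Grin2c they were Bmx (0.928), Col24a1 (0.923) and Kcnj8 (0.911). For Grin2d they were Fgf11 (0.931), Yy1 (0.928) and Tent4a (0.928), and for Grin3a they were Kantr (0.942), Adamtsl2 (0.931) and Gm45501 (0.921). Because these were the highest of many values over the same 12 libraries, no test is given.

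The partners of NMDARs were followed in 33 listed genes, of which 32 passed the filter and Dao, the gene of D-amino acid oxidase, did not. By limma with BH adjustment, 0 of 32 were called in HT/WT, HM/WT or HM/HT. At an unadjusted p under 0.05, 2 of 32 were higher and 0 lower in HT/WT, against 3.16% and 3.26% of all genes. In HM/WT, 4 of 32 were higher and 0 lower, against 3.93% and 3.05%, and in HM/HT 1 was higher and 0 lower, against 2.11% and 1.62%. Fold changes were above 0 for 27 of 32 genes in HT/WT and 25 of 32 in HM/WT, with a median of 0.04 in both, against 50.0% and 49.8% of all genes. The neuronal and astrocyte marker lists leaned the same way. In HT/WT, 5 of 7 neuronal and 7 of 8 astrocyte markers were above 0 (medians 0.04 and 0.05), and in HM/WT 7 of 7 and 8 of 8 (medians 0.04 and 0.05). The oligodendrocyte and telencephalic lists did not, with 3 of 8 each above 0 in both comparisons (medians -0.04 and -0.02 in HT/WT, -0.01 and -0.03 in HM/WT). The part of cell types in the partner result was not tested. Counts under other settings were made after the data had been seen. Without WT replicate 1, 27 of 32 genes were above 0 in HT/WT and 23 of 32 in HM/WT, and 0 and 2 of 32 were higher at an unadjusted p under 0.05, against 2.65% and 3.52% of all genes. After the correction for length and GC content, 2 and 5 of 32 were higher at that threshold, against 2.89% and 3.47% of all genes.

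Among signalling proteins that act downstream of the receptor, 1 of 8 genes was higher at an unadjusted p under 0.05 in HT/WT, against 3.16% of all genes. In HM/WT it was 3 of 8, against 3.93%. Without WT replicate 1 the counts were 0 of 8 and 1 of 8, against 2.65% and 3.52% of all genes. After the correction for length and GC content they were 1 of 8 and 4 of 8, against 2.89% and 3.47%. Rasgrf1, a calcium-activated exchange factor for Ras, had 11615, 12197, 12499 and 11418 normalized counts in WT mice and 13106, 13304, 12898 and 12617 in HM mice. The HM mice were all above the WT mice, with a log2 fold change of 0.12 ± 0.04 (limma, BH adjusted p = 0.643) and 0.11 without WT replicate 1. Nos1, the neuronal nitric oxide synthase that PSD-95 couples to the receptor, had 1871, 2362, 2523 and 2560 in WT mice, 2536, 2679, 2602 and 2689 in HT mice, and 2845, 2988, 2381 and 2697 in HM mice. The log2 fold change of Nos1 in HT/WT was 0.18 ± 0.08 (limma, BH adjusted p = 0.770), but 0.08 without WT replicate 1 (BH adjusted p = 0.831) and 0.13 after the correction for length and GC content. In HM/WT it was 0.23 ± 0.09 (limma, BH adjusted p = 0.673), but 0.13 without WT replicate 1 and 0.17 after the correction. Among kinases and phosphatase, Ptk2b, a calcium-dependent tyrosine kinase, had a log2 fold change in HM/WT of 0.09 ± 0.03 (limma, BH adjusted p = 0.664). All HM mice were above all WT mice, and the value was 0.07 without WT replicate 1. None of the other 7 genes of that group had an unadjusted p under 0.05 in HM/WT.

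Genes of co-agonist supply and removal bear most directly on a glycine transporter mutant. Of the 6 tested, 0 were called. At an unadjusted p under 0.05 it was 1 of 6 in HT/WT, against 6.42% of all genes, and 0 of 6 in HM/WT, against 6.99%. Without WT replicate 1 it was 0 of 6 in both, and after the correction for length and GC content 1 of 6 and 0 of 6. The gene in HT/WT was Srr, which encodes the enzyme that makes D-serine. It had 2306, 2668, 2563 and 2609 normalized counts in WT mice and 2810, 2960, 2615 and 2671 in HT mice. For Srr the log2 fold change in HT/WT was 0.12 ± 0.06 (limma, BH adjusted p = 0.770), and 0.08 without WT replicate 1 (limma, BH adjusted p = 0.839). Slc6a9, which encodes the glial glycine transporter GlyT1, had log2 fold changes of 0.03 ± 0.06 in HT/WT and 0.06 ± 0.06 in HM/WT (limma, BH adjusted p = 0.962 and 0.838). Shmt2, which encodes a mitochondrial enzyme that interconverts serine and glycine, had the lowest value of the group in HT/WT, at -0.09 ± 0.08 (limma, BH adjusted p = 0.890).

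Scaffolds of the PSD-95 family and trafficking partners were also examined. None of the 4 scaffold genes had an unadjusted p under 0.05 in any comparison by limma, and Dlg4, the gene of PSD-95 itself, had log2 fold changes of 0.02 and 0.03 in HT/WT and HM/WT. For Dlg3, which encodes the scaffold SAP102, all 4 HM mice were above all 4 WT mice. Its log2 fold change was 0.07 ± 0.03 (limma, BH adjusted p = 0.724), and 0.06 without WT replicate 1. None of the 6 trafficking and auxiliary genes had an unadjusted p under 0.05 either. The highest values of that group were those of Lin7a, at 0.14 ± 0.09 in HT/WT and 0.13 ± 0.09 in HM/WT (limma, BH adjusted p = 0.840 and 0.788), which were 0.06 and 0.05 without WT replicate 1. The lowest values in HM/WT were those of Lin7b, at -0.09 ± 0.08, and Kif17, the motor that carries GluN2B vesicles, at -0.05 ± 0.06 (limma, BH adjusted p = 0.839 and 0.885). Lin7b was also the lowest of its group in HT/WT, at -0.05 ± 0.08 (limma, BH adjusted p = 0.944). Without WT replicate 1 it was -0.01 in HM/WT and 0.03 in HT/WT.

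**Figure D5:**
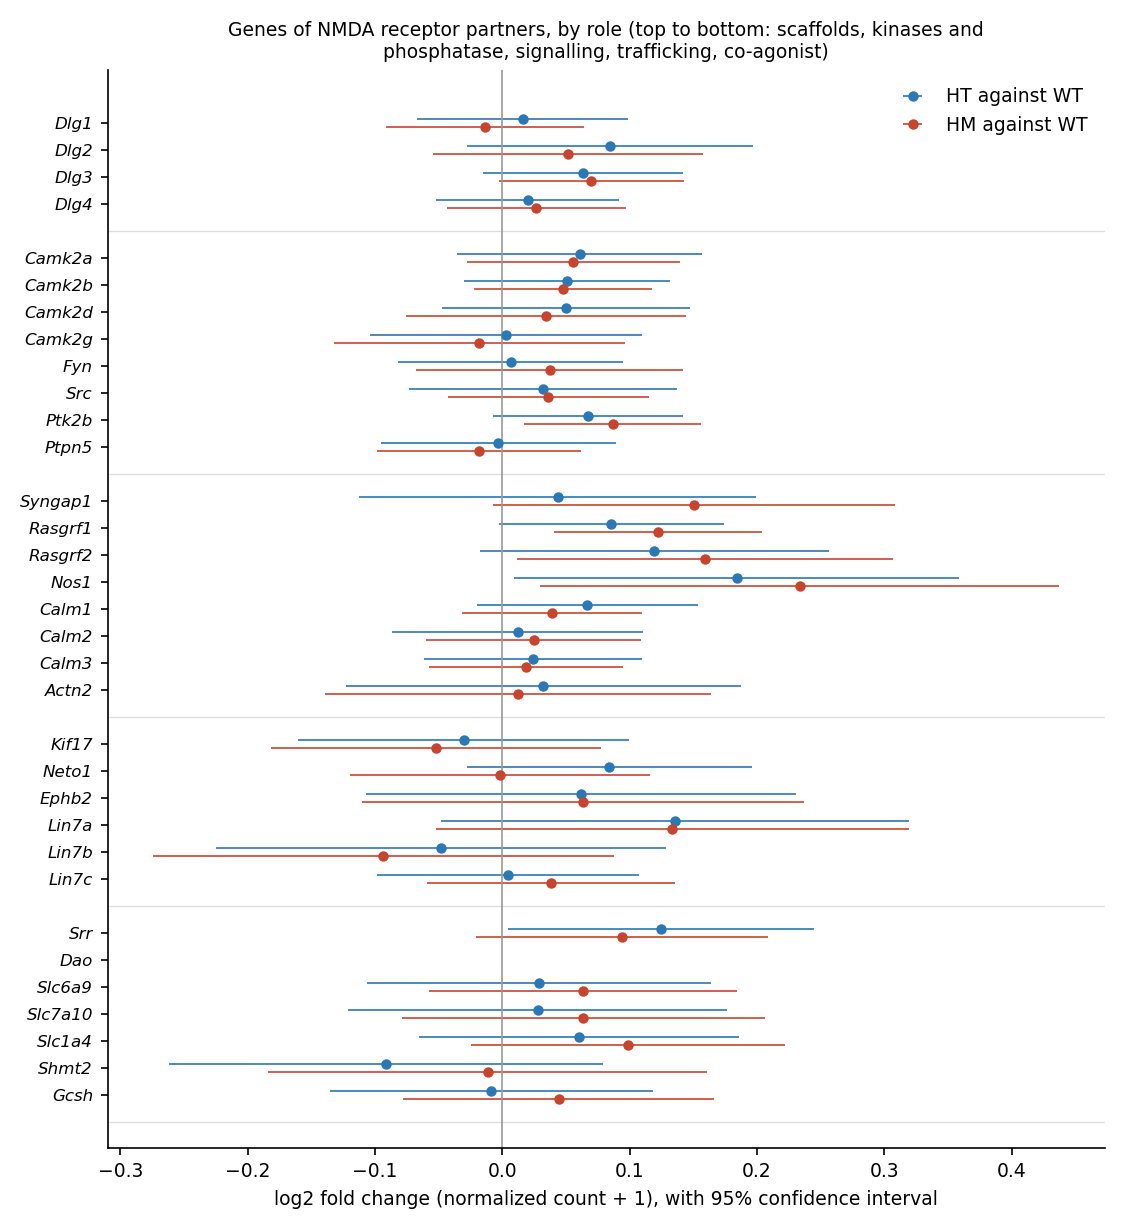
Log2 fold change with 95% confidence interval of the 33 listed NMDAR partner genes in HT/WT (blue) and HM/WT (red), grouped by role. Dao has no point because it did not pass the filter. Most points lie to the right of 0 by less than 0.1, with Nos1 at 0.18 and 0.23 the farthest (0.08 and 0.13 without WT replicate 1).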

How the data were processed

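Poly-A RNA from 12 mouse brains was sequenced by the authors as 100 bp paired-end reads. The deposited values are a normalized count signal. The authors estimated transcript abundance with Salmon 1.1.0 on GRCm38 with GC bias correction, summed it to genes with tximport and divided it by DESeq2 1.30.1 size factors (versions from the submitters' processing notes). Values were not whole multiples of a read, so count models were not used.

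Of 19775 gene identifiers, 19758 were found in GENCODE M21 and 17 were not. Columns named KO were read as HM from the sample titles. Pairs of genotypes were tested on log2(normalized count + 1) using limma 3.58.1 (R 4.3.3) and a mean-dependent variance prior, in genes averaging at least 10 over the 8 mice concerned. P-values were adjusted over all genes tested with a threshold of 0.05. The same scale holds for fold changes and understates those of low genes. Ratios were tested by two-sided exact permutation, and relations by 100000 permutations within genotype. Coding sequences were aligned with mafft 7.526, and subunit sequences are not reported here. Length and GC content were corrected by a loess curve per mouse with a span of 0.4. The test and the correction were also run on simulated data with known changes. The outcome is not reported here, and no conclusion on the subunits is drawn from it.

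The subunits, partner lists, marker lists and tests were chosen with earlier results of these data known. Genes named in the text were every subunit, Grin3b, Slc6a20a, and the 2 partner genes with the smallest unadjusted p in each direction in each comparison with WT, plus the 3 genes most like each subunit. Dlg3, Dlg4, Lin7a, Slc6a9 and the markers were named after their values were seen. Alternatives covered the pseudocount, filter, normalization, variance prior, blocks and each mouse left out.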

Additional observations from a re-analysis of the deposited data

Results flagged for a closer look

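Values in which 1 mouse lay far from the other 3 of its genotype were sought with Dixon's ratio, the gap to the nearest mouse divided by the range of the group, against its 95% critical value for 4 mice. Of 33 groups tested, 6 exceeded it, and chance alone passes about 1 in 20 groups. Grin1 in HT mice had a ratio of 0.908, with HT replicate 2 low at 18682 normalized counts. The ratio of Grin2c to Grin2b in HT mice had one of 0.844, with HT replicate 3 high at 0.125.

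The other 4 all came from HM replicate 3, which was low in each. Dixon's ratio was 0.871 for Grin2a (8458 normalized counts), 0.906 for Grin2d (836), 0.900 for the ratio of Grin2d to Grin2b (0.0405) and 0.834 for the ratio of summed Grin2 to Grin1 (1.52). These share 1 library and are not independent. WT replicate 1 did not exceed the critical value in Grin2b, since the 4 WT mice were spread over a wide range.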

How the results depend on the processing

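No subunit was called under any alternative. The number of subunits at an unadjusted p under 0.05 in HT/WT, 1 as reported, was 0 with the animal-number block, without a trend in the variance prior, with a robust prior and with quantile normalization, and 0 to 2 when each mouse was left out. It was 0 without WT replicate 1, WT replicate 4, or HT replicate 1, 2 or 4, and 2 without WT replicate 2. In HM/WT it was 1 to 2, with 2 without WT replicate 2, WT replicate 3 or HM replicate 3. Grin2b stayed above 0 in HT/WT and HM/WT under every alternative. Its HM/WT value ranged from 0.17 to 0.36 with each mouse left out (limma BH adjusted p from 0.411 to 0.874 over all alternatives). The replicate numbers paired no mice: deviations of mice with the same number had correlations from -0.07 to 0.09. With the replicate block, Grin2b in HM/WT was 0.28 and the number of subunits at an unadjusted p under 0.05 stayed 1, 1 and 0. The paired sign-flip test of ratios cannot go below 0.125. It gave that p for Grin2a to Grin2b (-0.16) and Grin2d to Grin2b (-0.33) in HM/WT, and changed no other call.

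Small fold changes reversed sign; the cause was not tested. With the animal-number block, Grin2d was 0.0016 in HT/WT and 0.14 in HM/HT, and Grin2b was -0.058 in HM/HT, where the block compares only HM replicate 4 with 2 HT mice. Other values kept their sign with that block but moved in size. Grin2a was 0.012 in HT/WT. In HM/WT, which rests on 2 pairs of mice, Grin2c was 0.13 and Grin2d was -0.15. After the length and GC correction, Grin3a was -0.0040 in HM/WT and Grin1 was -0.0044 in HM/HT. With each mouse left out, the ranges were -0.053 to 0.0073 for Grin2c and -0.074 to 0.0066 for Grin2d in HT/WT, and -0.085 to 0.022 for Grin2d in HM/WT. In HM/HT they were -0.026 to 0.026 for Grin1, -0.0055 to 0.055 for Grin2a, -0.033 to 0.091 for Grin2b and -0.055 to 0.052 for Grin2d. For log2 ratios in HM/WT they were -0.19 to -0.10 for Grin2a to Grin2b, -0.41 to -0.20 for Grin2d to Grin2b and -0.039 to 0.059 for Grin3a to Grin1. In HM/HT they were -0.046 to 0.027 for Grin2a to Grin2b, -0.021 to 0.14 for Grin2c to Grin2b, -0.15 to 0.058 for Grin2d to Grin2b, -0.083 to 0.015 for Grin3a to Grin1 and -0.031 to 0.081 for summed Grin2 to Grin1. With 3 mice against 4, no exact permutation p can go below 0.0571. Without centring on genotype, r was -0.0825 for Grin1 with Grin3a, -0.366 for Grin2a with Grin2c, -0.219 for Grin2b with Grin2c and 0.0231 for cerebellar markers with Grin3a. Per kilobase of all exons, levels were 2026 for Grin1, 478 for Grin2a, 148 for Grin2d and 134 for Grin3a. Per kilobase of coding sequence they were 6832 for Grin1, 4416 for Grin2b, 1953 for Grin2a, 557 for Grin2c, 482 for Grin3a and 248 for Grin2d.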
